A study of Arabidopsis thaliana with 15 samples.

Results

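AT4G28140 and AT2G22200 are a pair of Arabidopsis thaliana genes for AP2/ERF transcription factors of the DREB group. They were read here from all probe sets whose single listed gene was one of them. That rule gave 1 probe set for each, for AT4G28140 on chromosome 4 and for AT2G22200 on chromosome 2, and so 2 of the 13286 genes that a probe set of their own could be matched to. The genes were chosen on measured differences of these arrays. An earlier account of the arrays named AT4G28140 for brs1-1D against bri1-5 and AT2G22200 for bri1-1D against bri1-5, and these are taken here as the differences that chose them. The rule itself does not state them, and which differences are tested below rests on that reading. Those differences are therefore described without a test, and so is every other difference that uses the same arrays.

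RNA of whole seedlings grown for 5 days in light on solid medium with 1% sucrose was measured on 15 Affymetrix arrays. There were 5 genotypes with 3 biological replicates each, all in the WS2 ecotype. Of these, 3 were suppressor lines, named below brs1-1D, bri1-1D and bak1-1D, which carry bri1-5 together with the dominant suppressor of that name. The other two were bri1-5 itself, with a weak allele of the brassinosteroid receptor gene BRI1, and the wild type WS2. The suppressors are named after the serine carboxypeptidase-like gene BRS1, after BRI1 and after the co-receptor kinase gene BAK1. How many seedlings made up a replicate is not given in the sources used here.

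DREB factors are DNA-binding proteins with a single AP2 domain. The best known of them recognise the dehydration-responsive element in promoters and switch on genes of cold, drought and salt tolerance. The family is divided into DREB subgroups A-1 to A-6 and ERF subgroups B-1 to B-6, and both genes belong to A-6. RAP2.4, listed also as WIND1 for its part in wound-induced dedifferentiation, is the best known gene of that subgroup. Brassinosteroids are growth hormones bound at the cell surface by BRI1, and bri1-5 plants are dwarfed because that signal is weak.

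Both genes were lowest in WS2, intermediate in bri1-5 and bak1-1D, and highest in bri1-1D and brs1-1D. Values are log2 expression values as the authors deposited them, made with GCRMA, so that a difference of 1 is a doubling. AT4G28140 read 9.42, 9.74 and 9.66 on the brs1-1D arrays and 9.89, 9.58 and 9.27 in bri1-1D. It read 8.50, 8.79 and 8.55 in bak1-1D, 8.66, 7.80 and 8.41 in bri1-5, and 7.31, 6.24 and 7.54 in WS2. Every mutant array lay above every WS2 array, every bri1-1D and brs1-1D array lay above every bri1-5 and bak1-1D array, and bak1-1D overlapped with bri1-5. The means were 9.60 ± 0.17 in brs1-1D, 9.58 ± 0.31 in bri1-1D, 8.61 ± 0.16 in bak1-1D, 8.29 ± 0.44 in bri1-5 and 7.03 ± 0.69 in WS2 (SD, n = 3 each). In whole seedlings, more cells of a type and more RNA per cell cannot be told apart.

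AT2G22200 read lower on its own probe set and covered a narrower range. Its values were 6.40, 6.06 and 6.12 in brs1-1D, 6.04, 5.71 and 5.65 in bri1-1D, 5.01, 5.04 and 4.76 in bak1-1D, 5.29, 4.81 and 5.12 in bri1-5, and 4.50, 4.47 and 4.66 in WS2. Again every mutant array lay above every WS2 array and bak1-1D overlapped with bri1-5. The brs1-1D arrays lay above the bri1-1D arrays by 0.02 at the closest, whereas AT4G28140 overlapped between these lines. The means were 6.19 ± 0.18 in brs1-1D, 5.80 ± 0.21 in bri1-1D, 4.94 ± 0.15 in bak1-1D, 5.07 ± 0.24 in bri1-5 and 4.54 ± 0.10 in WS2 (SD, n = 3 each). Its values lay close above the level of 4 that served as the filter on low values, while those of AT4G28140 were well above it.

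**Figure D1:**
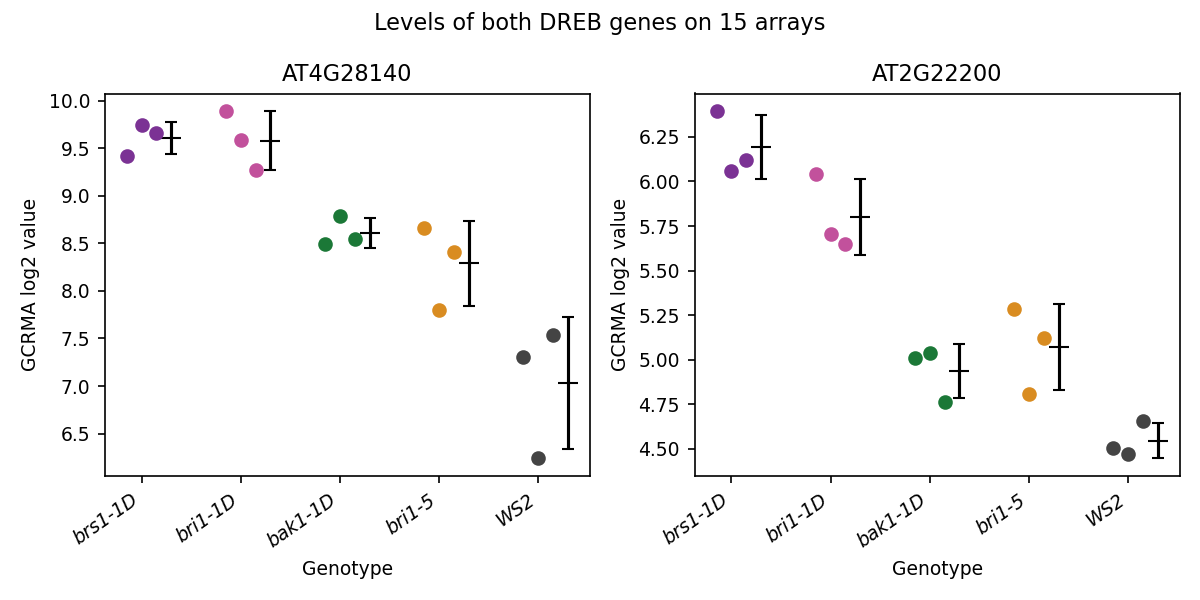
GCRMA log2 values (vertical axes) of AT4G28140 and AT2G22200 by genotype, with 1 point per array and a bar for the mean ± SD of 3 arrays. Both genes are highest in brs1-1D and bri1-1D and lowest in WS2, whose means are 7.03 and 4.54.

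For each gene 3 of the 10 pairwise differences compared the means of genotypes that were not behind its choice. These were tested with limma in a model that held the 15 arrays together. The spread behind each SE and p was thus estimated partly on the arrays that chose the gene. Below, called means an adjusted p under 0.05 after Benjamini-Hochberg correction across the 15912 probe sets tested. Counts at an unadjusted p under 0.05 have no share of all probe sets beside them. Whether they exceed that share cannot be told here. In bri1-1D against WS2, AT4G28140 rose by 2.55 ± 0.27 on the log2 scale, or 5.87-fold (SE, n = 3 each, limma adjusted p = 1.41e-05). In the same comparison 20.7% of all tested probe sets were called, 10.4% of all as higher, and on 18.9% the bri1-1D arrays lay entirely above WS2. In bak1-1D against WS2 it rose by 1.58 ± 0.27 (limma adjusted p = 0.00192). In that comparison 4.88% of all tested probe sets were called higher.

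AT4G28140 was lower in bak1-1D than in bri1-1D by a log2 difference of -0.97 ± 0.27 (limma adjusted p = 0.0325), where 4.27% of probe sets were called lower. All 3 bak1-1D arrays lay below all 3 bri1-1D arrays, as on 17.0% of probe sets. The call was lost on leaving out replicate 1 or replicate 2 of bri1-1D, or any single bak1-1D array (adjusted p from 0.0572 to 0.108). It remained without replicate 3 of bri1-1D.

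AT2G22200 rose in brs1-1D against WS2 by 1.65 ± 0.13, or 3.14-fold (SE, n = 3 each, limma adjusted p = 1.13e-06). Of all probe sets 20.4% were called in this comparison and 10.9% were called higher. It was lower in bak1-1D than in brs1-1D, with a log2 difference of -1.26 ± 0.13 (limma adjusted p = 6.09e-05) in a comparison with 3.99% of probe sets called lower. The bak1-1D arrays lay entirely below brs1-1D, as on 15.7% of probe sets. In bak1-1D against WS2 it was not called, at 0.39 ± 0.13 (95% interval 0.11 to 0.68, limma adjusted p = 0.0745). The bak1-1D arrays still lay above the WS2 arrays, by 0.11 at the closest, as they did on 14.2% of probe sets. The call was gained with the replicate number as a block (adjusted p = 0.0372), with array weights, in a fit of these 2 genotypes alone and without bri1-5 replicate 2.

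The differences that chose the genes, or share arrays with that choice, are given as values. In brs1-1D against bri1-5 the log2 difference was 1.32 ± 0.27 for AT4G28140 and 1.12 ± 0.13 for AT2G22200, and in bri1-1D against bri1-5 it was 1.29 ± 0.27 and 0.73 ± 0.13. Both comparisons share the bri1-5 arrays. For both genes the arrays of each line lay entirely above bri1-5, as on 9.77% of all probe sets in brs1-1D and on 6.10% in bri1-1D. In the first of these comparisons 1.72% of probe sets were called, and in the second 0.245%.

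In bak1-1D against bri1-5 AT4G28140 differed by 0.32 ± 0.27 and AT2G22200 by -0.14 ± 0.13, each with overlapping arrays. In bri1-5 against WS2 the differences were 1.26 ± 0.27 and 0.53 ± 0.13, with the bri1-5 arrays entirely above WS2, as on 20.2% of probe sets. AT4G28140 stood 2.58 ± 0.27 higher in brs1-1D than in WS2, with the arrays entirely above as on 19.0% of probe sets, and AT2G22200 stood 1.26 ± 0.13 higher in bri1-1D than in WS2. Between brs1-1D and bri1-1D the difference was 0.02 ± 0.27 for AT4G28140 and 0.39 ± 0.13 for AT2G22200, where brs1-1D arrays lay above bri1-1D on 9.10% of probe sets and 2.17% were called. From bri1-1D, AT2G22200 in bak1-1D differed by -0.86 ± 0.13, and from brs1-1D, AT4G28140 in bak1-1D differed by -0.99 ± 0.27.

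**Figure D2:**
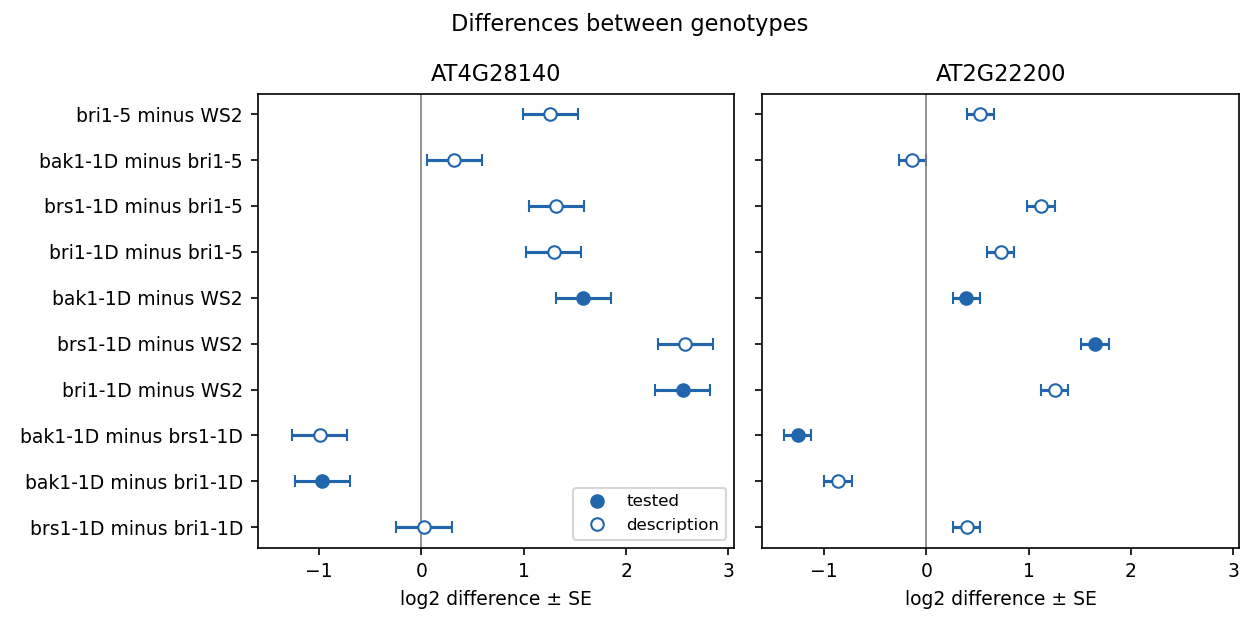
Log2 differences ± SE (horizontal axes) of both genes in the 10 pairwise comparisons, n = 3 arrays per genotype. Filled points were tested and open points are descriptions. The largest tested value is 2.55 for AT4G28140 in bri1-1D minus WS2.

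Several array and tissue readings are set beside these levels. The 25S rRNA control probe set read 6.24 to 7.13 in brs1-1D, 7.94 to 8.50 in bri1-1D, 6.38 to 7.30 in bak1-1D, 7.01 to 7.68 in bri1-5 and 6.10 to 6.27 in WS2. It was thus high in bri1-1D, where both genes were high, but in brs1-1D, where both genes were also high, its range overlapped with bak1-1D and reached down to that of WS2. Its part in the results was not tested. The difference between the 3′ and 5′ control probe sets of GAPDH, a reading of RNA integrity, averaged 0.23 in brs1-1D, 0.17 in bri1-1D, 0.18 in bak1-1D, 0.22 in bri1-5 and 0.24 in WS2. For actin it averaged 3.32, 3.50, 3.45, 3.38 and 3.50 in the same order of genotypes, and for ubiquitin 1.23, 1.32, 1.23, 1.26 and 1.20. The ubiquitin difference ran from 1.26 to 1.40 in bri1-1D, entirely above WS2 (1.17 to 1.23). In brs1-1D (1.20 to 1.24) it overlapped with WS2. The part of RNA integrity in the results was not tested.

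The labelled tissue, the whole seedling, was checked on root and green-tissue markers. Of 12 root markers 3 could be read (EXPA7, EXPA18 and PYK10), as could 2 of 12 green-tissue markers (LHCB4.1 and RCA), and all 5 read above 4 on every array. The log2 of the summed root marker level ran from 12.01 to 12.10 in brs1-1D, 11.85 to 11.98 in bri1-1D, 11.91 to 11.98 in bak1-1D, 11.85 to 12.03 in bri1-5 and 11.90 to 12.13 in WS2. The green-tissue sum ran from 13.86 to 14.02 over all genotypes. EXPA7, a root hair expansin, was higher in brs1-1D and bak1-1D than in bri1-1D (0.67 ± 0.16 and 0.57 ± 0.16, limma adjusted p = 0.0329 and 0.029). The sum rests almost wholly on PYK10. The median difference of the 3 root markers was -0.38 in bri1-1D against WS2 and -0.35 in bri1-5 against WS2, with 2 of 3 at an unadjusted p under 0.05 and 0 called by limma in each. In brs1-1D against WS2 the median was 0.02. Over all probe sets 20.7% were called in bri1-1D against WS2 and 17.6% in bri1-5 against WS2. With 3 markers, a count of 0 says little beside those shares. The part of tissue proportions in the results was not tested.

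The rest of subgroup A-6 was examined next. Of its 10 genes 6 had a probe set of their own and 5 passed the filter, AT4G28140 and AT2G22200 among them. AT5G65130 was the sixth, at 3.24 to 3.57 on all arrays. The other 3, AT1G64380, AT4G39780 and AT1G36060, were all called higher in bri1-5 against WS2, by 0.82 ± 0.20, 0.70 ± 0.15 and 0.61 ± 0.13 (SE, n = 3 each, limma adjusted p = 0.0111, 0.00406 and 0.00486). Their median of 0.70 stands beside 0.02 over all tested probe sets, of which 17.6% were called, 9.45% as higher and 8.14% as lower. The split over all probe sets was 1503 higher and 1296 lower, and 1152 and 1605 after each array was centred on its median. A gene that is low in WS2 can pass the filter through the mutant arrays alone, so the count covers only genes that passed. Of the 3, AT1G36060 read 4.30, 3.82 and 4.01 on the WS2 arrays and passed only with the help of mutant arrays. Both the count and the median include it. The call of AT1G64380 was lost without WS2 replicate 2 or bri1-5 replicate 1 (adjusted p = 0.0577 each).

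AT1G64380 followed the pair most closely. It read 8.72, 8.68 and 8.81 in brs1-1D, 9.02, 8.67 and 8.52 in bri1-1D, 8.30, 8.59 and 8.03 in bak1-1D, 8.79, 7.99 and 8.47 in bri1-5, and 7.71, 7.19 and 7.90 in WS2. The mutant arrays were again all above WS2, but brs1-1D overlapped with bri1-5. Against WS2 it rose in brs1-1D by 1.14 ± 0.20 and in bri1-1D by 1.14 ± 0.20, and in bak1-1D by 0.71 ± 0.20 (limma adjusted p = 0.000952, 0.00118 and 0.037). Against bri1-5 it was not called in any suppressor line, with 0.32 ± 0.20 in brs1-1D, 0.32 ± 0.20 in bri1-1D and -0.11 ± 0.20 in bak1-1D.

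AT4G39780 read 6.47, 6.25 and 6.03 in brs1-1D, 6.64, 6.35 and 6.19 in bri1-1D, 5.57, 5.65 and 5.80 in bak1-1D, 5.84, 6.19 and 6.14 in bri1-5, and 5.47, 5.07 and 5.53 in WS2. It was lower in bak1-1D than in brs1-1D and bri1-1D (-0.58 ± 0.15 and -0.72 ± 0.15, limma adjusted p = 0.0231 and 0.00546), as AT2G22200 was lower than in brs1-1D and AT4G28140 lower than in bri1-1D. Against WS2 it rose in brs1-1D and bri1-1D, by 0.90 ± 0.15 and 1.04 ± 0.15. In bak1-1D it stood 0.32 ± 0.15 higher than WS2 and was not called.

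AT1G36060 showed no step between mutant lines. Its means were 4.58 ± 0.10 in brs1-1D, 4.66 ± 0.06 in bri1-1D, 4.53 ± 0.29 in bak1-1D, 4.66 ± 0.08 in bri1-5 and 4.05 ± 0.24 in WS2 (SD, n = 3 each). It was called higher in each mutant line against WS2 (0.49 to 0.61), and no comparison between mutant lines was called. Its values lay near the filter level of 4, and its bak1-1D arrays (from 4.25) overlapped with WS2 (up to 4.30). Over all probe sets 4.88% (bak1-1D) to 10.9% (brs1-1D) were called higher against WS2. In each suppressor line against bri1-5, limma called 0 of the 3 other A-6 genes, a count near the shares of 1.72%, 0.245% and 4.34% called over all probe sets in brs1-1D, bri1-1D and bak1-1D. An unadjusted p under 0.05 was found for 0 of them in brs1-1D and for 1 each in bri1-1D and bak1-1D. Their median differences were 0.20 in brs1-1D, 0.32 in bri1-1D and -0.12 in bak1-1D, beside -0.02, -0.01 and -0.04 over all probe sets.

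**Figure D3:**
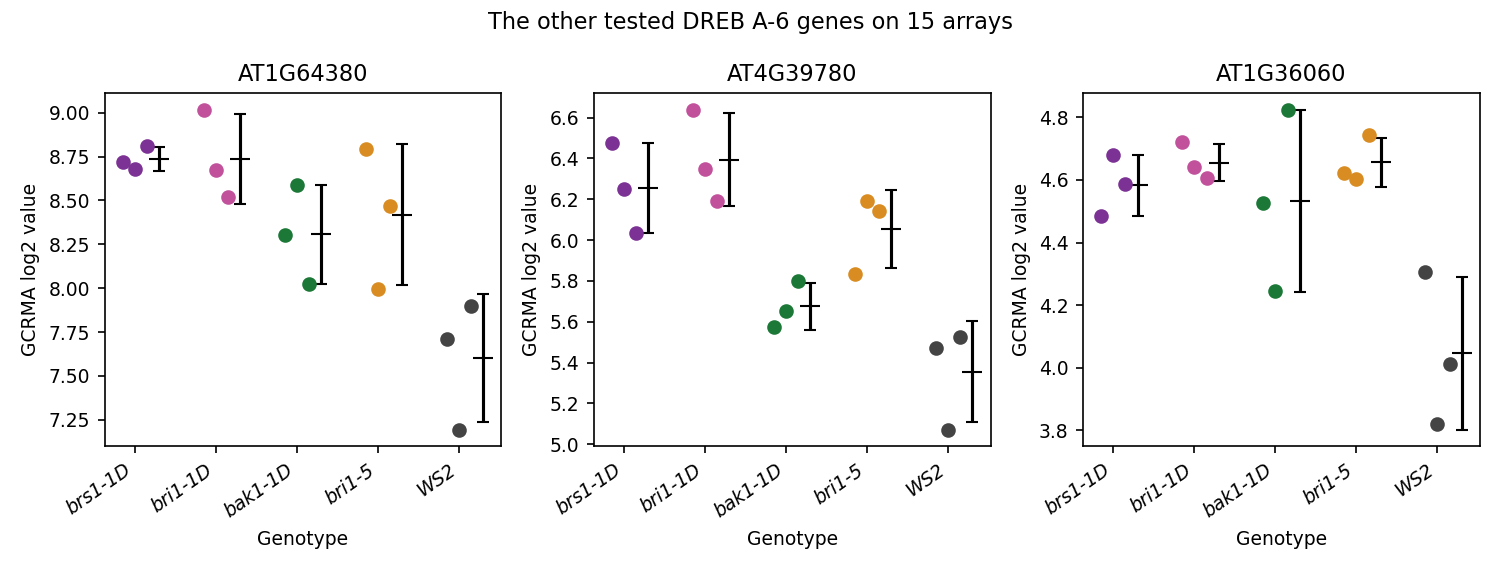
GCRMA log2 values (vertical axes) of the other 3 tested DREB A-6 genes by genotype, with 1 point per array and a bar for the mean ± SD of 3 arrays. WS2 has the lowest mean for each gene, 7.60, 5.36 and 4.05.

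The remaining AP2/ERF genes did not share a direction. Of 46 genes of DREB A-1 to A-5, 24 had a probe set and 16 were tested. In bri1-5 against WS2, 5 of these were called higher, 2 lower and 9 were not called (median 0.02), beside 9.45% higher and 8.14% lower over all probe sets. The 5 include AT1G75490, named after its values were seen, which read below 4 on all WS2 arrays and passed the filter through mutant arrays alone. The highest was AT2G44940 (0.71 ± 0.16, limma adjusted p = 0.00615) and the next AT4G32800 (0.50 ± 0.15), and the other 3 include AT1G44830 (0.46 ± 0.10) and AT3G57600 (0.35 ± 0.10). The lower genes were AT1G22810 (-1.77 ± 0.40, limma adjusted p = 0.00671) and AT1G77640 (-0.99 ± 0.18). Both read below the filter level of 4 on all 3 bri1-5 arrays, and AT1G77640 passed the filter through its WS2 arrays alone. With values below 4 set to 4 the differences were -1.12 and -0.50, each still called. The calls of AT4G32800 and AT3G57600 were each lost without 1 of several arrays (adjusted p up to 0.13 and 0.0978). Of 54 ERF genes 10 had a probe set and 6 were tested. Of these 1 was called lower, AT5G61590, listed as DEWAX, a repressor of cuticular wax synthesis (-0.62 ± 0.14, limma adjusted p = 0.0059).

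In brs1-1D against bri1-5, 3 of the 25 tested AP2/ERF genes other than the pair were called. AT3G57600 rose by 0.46 ± 0.10, and SHN3, a relative of the wax regulator SHN1, by 0.54 ± 0.13 (limma adjusted p = 0.0241 and 0.0441). AT1G44830 fell by 0.77 ± 0.10 (limma adjusted p = 0.00102). The counts of higher and lower calls were 2 and 1, against 1.18% and 0.534% of all probe sets. Without bri1-5 replicate 2, brs1-1D replicate 2 or brs1-1D replicate 3, AT1G44830 was the only call left of the 3, and the call of SHN3 was lost in 13 of 23 alternative fits.

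In bri1-1D and in bak1-1D against bri1-5, limma called 0 of the 25. Over all probe sets 0.245% were called in bri1-1D against bri1-5, so 0 of 25 is near that share. Unadjusted p-values under 0.05 numbered 3 in bri1-1D and 5 in bak1-1D. In bak1-1D against bri1-5, 4.34% of all probe sets were called, 468 higher and 222 lower, or 583 and 157 after median centring.

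Genes known as targets of DREB factors were read for the same arrays. Whether AT4G28140 or AT2G22200 acts on them was not tested. Of 23 listed cold and dehydration genes 4 could be tested, and all are well known as cold-induced. They were COR15A and COR15B, whose products protect chloroplast membranes in freezing, and the dehydrin genes COR47 and LTI30. In bri1-5 against WS2, 2 were called higher, COR15A (1.94 ± 0.28) and COR15B (1.00 ± 0.29), and 2 were not, COR47 (0.28) and LTI30 (0.91 ± 0.35). The median was 0.95. Against WS2, 3 of the 4 rose in brs1-1D (median 1.54) and in bri1-1D (median 1.39), and 2 in bak1-1D (median 1.09). Over all probe sets 10.9% were called higher in brs1-1D, 10.4% in bri1-1D and 4.88% in bak1-1D. LTI30 was the gene that passed in brs1-1D and bri1-1D (1.20 ± 0.35 in each, limma adjusted p = 0.0243 and 0.0252) and not in bak1-1D or bri1-5. The difference between lines was not called for any of the 4. Against bri1-5, limma called 0 of 4 in each suppressor line, where 1.72% of all probe sets were called in brs1-1D, 0.245% in bri1-1D and 4.34% in bak1-1D. A count of 0 of 4 is near those shares. Unadjusted p-values under 0.05 numbered 2 in brs1-1D, 0 in bri1-1D and 0 in bak1-1D.

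The bri1-5 replicates spread in the same order on several of these genes. For AT4G28140, AT2G22200, AT1G64380, COR15A, COR15B, COR47 and LTI30, replicate 1 was the highest of the bri1-5 arrays and replicate 2 the lowest. LTI30 ran over 9.88, 7.77 and 9.25 and COR15A over 8.60, 7.08 and 7.67 on replicates 1, 2 and 3. Without bri1-5 replicate 2, the 4 cold genes were all called in bri1-5 against WS2, and without bri1-5 replicate 1, WS2 replicate 1 or WS2 replicate 2, 1 was.

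**Figure D4:**
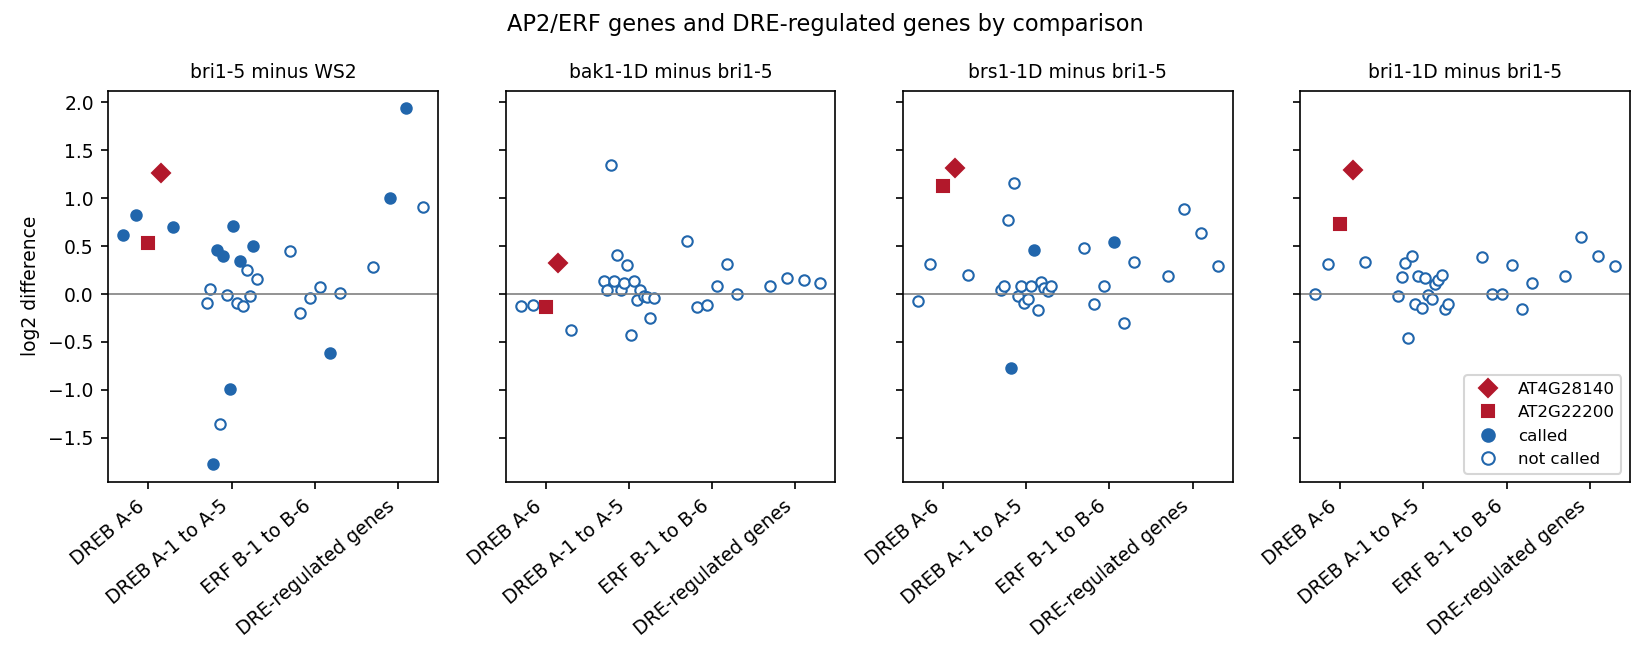
Log2 differences (vertical axis) of tested AP2/ERF genes by subgroup and of DRE-regulated genes, in 4 comparisons with 3 arrays per genotype. Red symbols are AT4G28140 and AT2G22200, filled circles were called and open circles were not. The 3 other A-6 genes lie between 0.61 and 0.82 in bri1-5 minus WS2. The values of the pair are descriptions in all 4 panels, since each uses the bri1-5 arrays, and their filled symbols do not mark a call.

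Likeness of pattern was measured as Pearson's r of log2 values over the 15 arrays, across the 8623 other tested probe sets with 1 gene. The arrays fall into 5 genotypes, so r is a description and mostly reflects the genotype means. It includes the arrays on which the pair was chosen, so the likeness of the pair to each other is partly set by that choice. Both DREB genes correlated at r = 0.89, and at 0.54 when the deviations from the genotype means were taken. AT2G22200 ranked 17 among all genes by likeness to AT4G28140, and AT4G28140 ranked 16 by likeness to AT2G22200. Of the 100 genes most like each, 51 were shared, and over all genes both measures of likeness ran together. Both readings are tied to the r of 0.89 between the pair and are not separate signs of likeness.

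Closest to AT4G28140 were AT1G20070 (r = 0.99), PUB19, which codes for a U-box ubiquitin ligase (0.95), AT5G53710 (0.94), AT4G36010 (0.94) and the A-6 gene AT1G64380 (0.94). On deviations from the genotype means these still correlated at 0.94, 0.88, 0.79, 0.95 and 0.89. AT1G20070 averaged 9.42 ± 0.09 in brs1-1D, 9.35 ± 0.34 in bri1-1D, 8.45 ± 0.21 in bak1-1D, 8.47 ± 0.48 in bri1-5 and 7.14 ± 0.50 in WS2 (SD, n = 3 each). AT1G64380 thus ranked 5 of 8623 for AT4G28140 and 56 for AT2G22200, while AT4G39780 ranked 57 and 90 and AT1G36060 ranked 254 and 1174.

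Closest to AT2G22200 were AT5G47330 (r = 0.93), AT4G36010 (0.92), AT2G21560 (0.92), AT5G53710 (0.91) and AT4G30600 (0.91). Their correlation on deviations was lower, from 0.30 to 0.61. ARL, an ARGOS-like gene of organ growth, was among the 3 genes least like each, at r = -0.94 with AT4G28140, the lowest, and -0.92 with AT2G22200. It averaged 7.09 ± 0.03 in brs1-1D, 6.99 ± 0.01 in bri1-1D, 7.67 ± 0.15 in bak1-1D, 7.63 ± 0.10 in bri1-5 and 8.12 ± 0.23 in WS2 (SD, n = 3 each). Its order of genotypes was nearly the reverse of that of the pair. SKU5, which codes for a cell wall glycoprotein of directional root growth, had the lowest r with AT2G22200 (-0.94), and the cytochrome P450 gene CYP71B24 the next (-0.93). AT3G11780 and AT2G35880 were the others at the low end for AT4G28140 (-0.92 each).

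**Figure D5:**
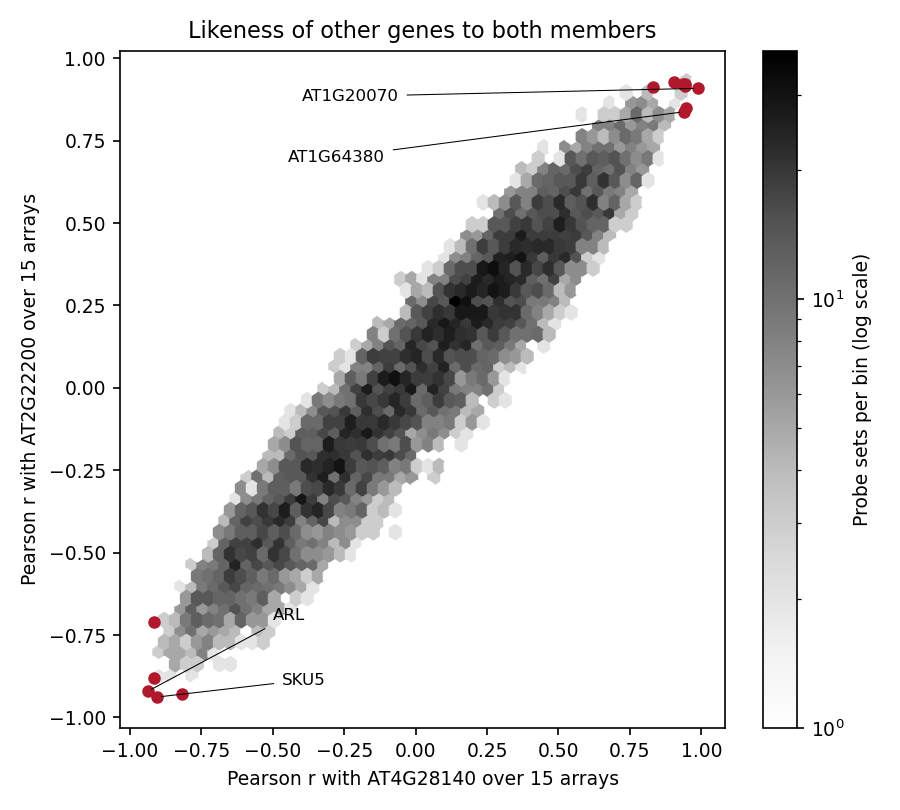
Pearson's r with AT4G28140 (horizontal axis) and with AT2G22200 (vertical axis) over 15 arrays, as counts of tested probe sets with 1 gene per bin on a log grey scale. Red points are the genes named by likeness, with AT1G20070 at 0.99 on the horizontal axis and ARL at -0.94, and the whole cloud follows the diagonal.

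The genes beside each member on its chromosome were read in the same comparisons. AT4G28140 lies on chromosome 4, as do BRS1, BAK1 and BRI1, with BRS1 the nearest at 307 genes away in the RefSeq order. Of its 10 nearest tested neighbours, 5 on each side within 15 genes, limma called 0 in brs1-1D against bri1-5, and 2 had an unadjusted p under 0.05. Their differences ran from -0.35 to 0.17. The same 10 ran from -0.41 to 0.22 in bri1-1D against bri1-5, where limma called 0 and 1 had an unadjusted p under 0.05. The 10 tested neighbours of AT2G22200, within 36 genes on chromosome 2, ran from -0.09 to 0.17 in bri1-1D against bri1-5 and from -0.22 to 0.23 in brs1-1D, and limma called 0 in either. Unadjusted p-values under 0.05 numbered 0 in bri1-1D and 3 in brs1-1D. Over all probe sets 1.72% were called in brs1-1D against bri1-5 and 0.245% in bri1-1D against bri1-5. A count of 0 of 10 is near those shares. Against WS2 some neighbours were called. AT4G28180, 6 genes from AT4G28140, was higher in bri1-1D (0.60 ± 0.12), bak1-1D (0.53 ± 0.12) and bri1-5 (0.56 ± 0.12), the direction of AT4G28140. In brs1-1D it stood 0.21 ± 0.12 above WS2 and was not called (limma adjusted p = 0.233). In brs1-1D against bri1-5 it differed by -0.35 ± 0.12 (limma adjusted p = 0.136, not called), opposite in direction to AT4G28140. In bri1-1D against WS2, 3 of the 10 neighbours of AT4G28140 were called, 2 higher and 1 lower, and 1 of the 10 of AT2G22200 was called lower, where 20.7% of all probe sets were called. AT4G28180 was named after its values were seen.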

How the data were processed

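Seedling RNA was hybridised to 1 array per sample, 15 in all. The authors deposited 1 log2 value per probe set and array, made with GCRMA per the submitters' processing notes, whose version is not stated there. They ran from 2.01 to 13.5. No counts stand behind them, and the number of arrays limits the precision.

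Groups and replicate numbers came from the sample titles. For bak1-1D and brs1-1D the description field calls every array repeat 1, against the titles, so that their replicate numbers, the block and the pairing check rest on the titles alone. Probe sets with a log2 value above 4 on at least 3 arrays were tested, array controls left out (15912 of 22810). The model held a mean for each genotype and took in all 15 arrays (limma 3.58.1, R 4.3.3, eBayes without trend), with Benjamini-Hochberg adjustment over all tested probe sets at 0.05. The test was checked on simulated data with independent noise and known changes in bak1-1D alone. That check does not cover arrays with correlated deviations. p-values measure the spread between arrays stated to be biological replicates. Genes were named through the platform's gene table and RefSeq (TAIR10.1), which placed 13436 probe sets with 1 gene. Gene order on a chromosome came from the RefSeq start coordinates, and no sequences were used.

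Members and gene lists were chosen with earlier results of these data known. The genes named are both members, all tested A-6 genes, up to 4 called members of each other list by size of difference (bri1-5 against WS2, suppressors against bri1-5), the 5 most and 3 least alike genes of each member, and neighbours called in the comparison that chose the member. COR47, LTI30, the marker genes and genes named beside other comparisons were added after their values were seen.

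Same-number arrays had correlated deviations above 0.1 in all 3 pairs for bri1-5 with WS2 (0.10 to 0.35), brs1-1D (0.16 to 0.19) and bri1-1D (0.10 to 0.27). In the other 7 comparisons at least 1 pair was below that, brs1-1D with WS2 among them (-0.13 to 0.16). No values for arrays of different number stand beside these, so whether the arrays were paired cannot be told from them. Alternatives were the replicate block, other filters, median centring, a floor, an intensity trend, array weights, fits of 2 genotypes alone and leaving out each array.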

Additional observations from a re-analysis of the deposited data

How the results depend on the processing

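For AT4G28140, the rise in bri1-1D against WS2 and in bak1-1D against WS2, and for AT2G22200 the rise in brs1-1D against WS2 and the lower level in bak1-1D than in brs1-1D, kept direction and call under all 23 alternatives (adjusted p up to 0.00097, 0.0103, 1.61e-05 and 0.000678). AT4G28140 in bak1-1D against bri1-1D ran from -1.13 to -0.82 with 1 array left out and lost its call in 5 of these fits, which have fewer arrays. AT2G22200 in bak1-1D against WS2 ran from 0.34 to 0.48 with 1 array left out. It passed the threshold under the replicate block (0.39, adjusted p = 0.0372), with array weights (0.39, 0.0385), in a fit of these 2 genotypes alone (0.39, 0.035) and without bri1-5 replicate 2 (0.0497), and the replicate block moved no other call of the pair. The cause was not tested. Described differences of both genes kept their sign under all alternatives, except AT4G28140 between brs1-1D and bri1-1D (-0.13 to 0.18).

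Called AP2/ERF genes numbered 1 in bak1-1D against bri1-5 with array weights or the 2 genotypes alone (0 to 1 with 1 array left out), 1 in bri1-1D with array weights (0 to 1) and 1 in brs1-1D with the 2 genotypes alone (1 to 3). DRE-regulated genes in bri1-5 against WS2 numbered 1 with the 2 genotypes alone and 1 to 4 with 1 array left out, and 0 to 2 in brs1-1D. Calls over all probe sets moved by over 1.5 times in 8 of 10 comparisons, with 2799 (1761 to 3783) in bri1-5 against WS2, 690 (321 to 1256) in bak1-1D against bri1-5, 273 (112 to 457) in brs1-1D against bri1-5, 39 (6 to 61) in bri1-1D against bri1-5, 1595 (828 to 2161) in bak1-1D against WS2, 1270 (719 to 1535) in bak1-1D against brs1-1D, 1611 (909 to 2016) in bak1-1D against bri1-1D and 346 (81 to 496) in brs1-1D against bri1-1D. Signal near or below the filter limits AT2G22200, AT1G36060, AT1G75490, AT1G22810 and AT1G77640.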

Other observations

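Some AP2/ERF genes outside A-6 differed between the suppressor lines. AT1G44830 was lower in brs1-1D than in WS2 (-0.31 ± 0.10, limma adjusted p = 0.0301) and higher in bak1-1D than in WS2 (0.59 ± 0.10, adjusted p = 0.00137). Between bak1-1D and brs1-1D it differed by 0.90 ± 0.10 (adjusted p = 6.09e-05), in the opposite direction to AT2G22200 (-1.26). AT3G57600 was higher in brs1-1D than in bri1-1D (0.52 ± 0.10, adjusted p = 0.0123), and it was the 1 of 25 tested AP2/ERF genes other than the pair that was called between these lines, against 2.17% of all probe sets. DEWAX (AT5G61590) was lower than in WS2 in brs1-1D (-0.92 ± 0.14) and bri1-1D (-0.77 ± 0.14) and higher in bak1-1D than in both (0.61 ± 0.14 and 0.47 ± 0.14, adjusted p = 0.0117 and 0.0417). In the direction of the pair, AT3G57600 was lower in bak1-1D than in brs1-1D (-0.52 ± 0.10, limma adjusted p = 0.00333). So was AT2G44940 in bak1-1D against bri1-1D (-0.59 ± 0.16, limma adjusted p = 0.0282). Of the 25, A-6 genes included, 2 were called higher and 3 lower in bak1-1D against brs1-1D. Against bri1-1D the counts were 2 and 2. Over all probe sets they were 635 and 635 in the first comparison and 931 and 680 in the second.

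Among the neighbours of AT4G28140, AT4G28085, which lies 7 genes away, was lower than in WS2 by a log2 difference of -1.13 ± 0.15 in brs1-1D, -1.55 ± 0.15 in bri1-1D and -1.14 ± 0.15 in bri1-5. It was higher in bak1-1D than in bri1-5 (0.87 ± 0.15, limma adjusted p = 0.00391). It was chosen for mention after its values were seen.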
